A study of Homo sapiens with 7 samples.

Results

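H3K4me3 was followed at the start sites of 7 genes for enzymes that add or remove methyl groups on lysine: KDM5B and KDM5C, paralogs of KDM5A, KDM1A (also called LSD1) and KDM1B (LSD2), and SMYD2, SMYD3 and SMYD5. The genes were chosen by name, with earlier results of these data known. A listed region was taken as a member where it overlapped 3 kb on either side of the gene's hg19 start site, given in whole kb. This rule found 8 of the 30840 listed regions, 2 at KDM5B and 1 at each of the other genes. All cells were HCT116, a human colon cancer line, with the genotype KDM5A-/-, kept under G418, and whether the knockout line is 1 clone is not given in the sources used here. Transfection was with the vector alone (EV), with KDM5A_WT (the wild-type protein) or with KDM5A_MUT (a mutant), and fixation came 24 h later. The residues changed in the mutant and the share of cells that took up the DNA were not stated in the labels. Chromatin immunoprecipitation and sequencing gave 1 H3K4me3 library for each transfection, so no comparison was checked in replicates or carries a p-value. The values are RPM (reads per 1000000 of the library), and the 95% intervals are computed from whole reads and cover counting error only.

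Trimethylation of lysine 4 on histone H3 sits around the start sites of active genes, where it is laid down by methyltransferase complexes and taken off by the KDM5 demethylases. KDM5 enzymes use a JmjC domain and can act on the trimethyl form, whereas KDM1A and KDM1B are flavin-dependent amine oxidases that act on the mono- and dimethyl forms. The SMYD proteins carry a SET domain split by a MYND zinc finger, and several of them methylate proteins other than histones. SMYD2 is named in the title of the series as an enzyme that methylates KDM5A.

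The upstream sequences of 4 of the genes are shown because KDM5A's ARID domain is known to bind the letters CCGCCC, which read GGGCGG on the other strand and are also the core of the GC box bound by Sp factors. KDM5B and KDM5C are paralogs of the transfected enzyme, SMYD2 is the enzyme of the title, and KDM1B had the lowest ratio of KDM5A_MUT to KDM5A_WT. Each run holds the 250 bases before the start in RefSeq's table for GRCh38.p14, 5′ to 3′ along the gene, with every CCGCCC or GGGCGG in capitals. The positions in that build are chr1:202808422-202808671, minus strand for KDM5B, chrX:53225208-53225457, minus strand for KDM5C, chr6:18155172-18155421, plus strand for KDM1B and chr1:214280909-214281158, plus strand for SMYD2, and they do not match the hg19 positions of the regions below.
KDM5B: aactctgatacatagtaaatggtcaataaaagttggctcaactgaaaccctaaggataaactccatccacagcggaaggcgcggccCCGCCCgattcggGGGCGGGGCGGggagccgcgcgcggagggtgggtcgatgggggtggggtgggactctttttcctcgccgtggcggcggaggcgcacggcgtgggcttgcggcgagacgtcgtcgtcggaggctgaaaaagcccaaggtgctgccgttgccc
KDM5C: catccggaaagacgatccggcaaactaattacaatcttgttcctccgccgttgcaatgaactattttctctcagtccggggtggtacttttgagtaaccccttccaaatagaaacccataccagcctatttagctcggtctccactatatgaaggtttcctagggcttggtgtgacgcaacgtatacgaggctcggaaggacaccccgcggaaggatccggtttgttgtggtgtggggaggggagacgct
KDM1B: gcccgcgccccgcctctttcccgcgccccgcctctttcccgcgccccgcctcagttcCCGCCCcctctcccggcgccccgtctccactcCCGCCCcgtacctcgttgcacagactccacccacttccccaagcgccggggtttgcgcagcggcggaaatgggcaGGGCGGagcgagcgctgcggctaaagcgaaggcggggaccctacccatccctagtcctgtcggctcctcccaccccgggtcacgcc
SMYD2: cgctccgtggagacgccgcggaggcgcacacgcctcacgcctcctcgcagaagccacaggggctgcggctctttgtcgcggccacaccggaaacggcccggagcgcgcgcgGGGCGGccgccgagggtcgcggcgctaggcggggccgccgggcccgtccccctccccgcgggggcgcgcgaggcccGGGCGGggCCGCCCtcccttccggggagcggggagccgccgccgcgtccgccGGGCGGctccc
KDM5B holds 3 matches, KDM1B 3, SMYD2 4 and KDM5C 0. Of the genes not shown, SMYD3 holds 2 matches before the farther upstream of its 2 starts in the table, and KDM1A and SMYD5 hold 1 each. Thus 6 of the 7 genes have at least 1 match, as do 42.6% of the 35114 upstream sequences of the same length in the table. That share is not matched for CpG dinucleotides, and whether 6 of 7 is more than among similar sequences was not tested. The genes also differ in CpG dinucleotides, from 12 in SMYD5 and 15 in KDM5C over 23 in KDM1A, 27 in KDM5B and in SMYD3 and 30 in KDM1B to 46 in SMYD2, against a median of 11 over all upstream sequences. A match describes letters only, and no binding of KDM5A was measured here.

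Sequencing depth recovered from the RPM steps was about 10710000 reads for EV, 10850000 for KDM5A_WT and 9907000 for KDM5A_MUT. The listed regions held 67.0%, 60.7% and 56.9% of these reads. On chromosome 12, the chromosome of KDM5A, a group of 20 regions between 394565 and 493388 was picked by its values. Its limits are the outermost regions there with under 1 RPM with EV and over 5 RPM with both forms. Between these limits, every listed region with under 1 RPM with EV was taken. The group summed to 4.01 RPM with EV, 396 RPM with KDM5A_WT and 487 RPM with KDM5A_MUT. These sums follow in part from that choice and are no independent check on the transfections. The full pattern was held by 19 of the 20 regions and by 0 listed regions outside the group. It was held by 0 of the listed regions within 100 kb of the 7 start sites. The median log2 ratio of all regions depended on the scaling, in part by construction. A scaling to a median ratio of 1, set on the regions not below the median level, brings it near 0 by definition. With the libraries scaled to a median ratio of 1 it moved by 0.13 for KDM5A_WT against EV and by 0.21 for KDM5A_MUT, and the share of lower regions among those past 1.5-fold went from 51.2% to 36.96% and from 55.2% to 31.7%. For KDM5A_MUT against KDM5A_WT it moved by 0.084, with 40.2% lower in place of 51.2%. Each gene is therefore also given relative to the strong regions, the 10887 with a mean of 20 RPM or more, to which all 8 regions of the genes belong. No annotation of hg19 was used here, so other genes of these families and markers of the colon epithelium were not placed.

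A listed region lay across the start site, as given in whole kb, of each of the 7 genes. That of KDM5B ran from 202775834 to 202777983 on chromosome 1 (hg19), or from 0.983 kb before the start to 1.17 kb after it in the direction of transcription. Its other region, at 202779305 to 202781829, lay wholly upstream, 2.31 to 4.83 kb before the start and 1321 bp away from the first. In RefSeq's GRCh38.p14 table the next gene beyond the start of KDM5B is LOC124904583, and whether the upstream region belongs to KDM5B was not tested.

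The other regions were single. KDM5C's lay on chromosome X at 53252380 to 53255340, from 1.34 kb before the start to 1.62 kb after it. KDM1A's lay on chromosome 1 at 23344926 to 23348104 and reached 2.10 kb past the start, and KDM1B's lay on chromosome 6 at 18154080 to 18157039 and reached 2.04 kb. SMYD2's region, on chromosome 1 at 214453657 to 214456478, lay mostly after the start, with 0.343 kb before the start and 2.48 kb after it. SMYD3's, on chromosome 1 at 246669461 to 246671173, had 1.17 kb before and 0.539 kb after, and at 1713 bp was the narrowest of the 8. SMYD5's lay on chromosome 2 at 73439923 to 73442959 and reached 1.96 kb past the start. Since the starts are given in whole kb, these distances can be off by up to 1 kb. The next gene beyond the start, in the GRCh38.p14 table, is on the opposite strand for KDM1B (TPMT) and for SMYD2 (the lncRNA gene LOC124904509), so that such a pair can share a region and its mark cannot be told apart. For KDM1A (next gene TEX46) and SMYD3 (LINC01743) the strand of the next gene was not given, so this could not be looked up. The plot of regions by distance from the start shows these positions.

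**Figure D1:**
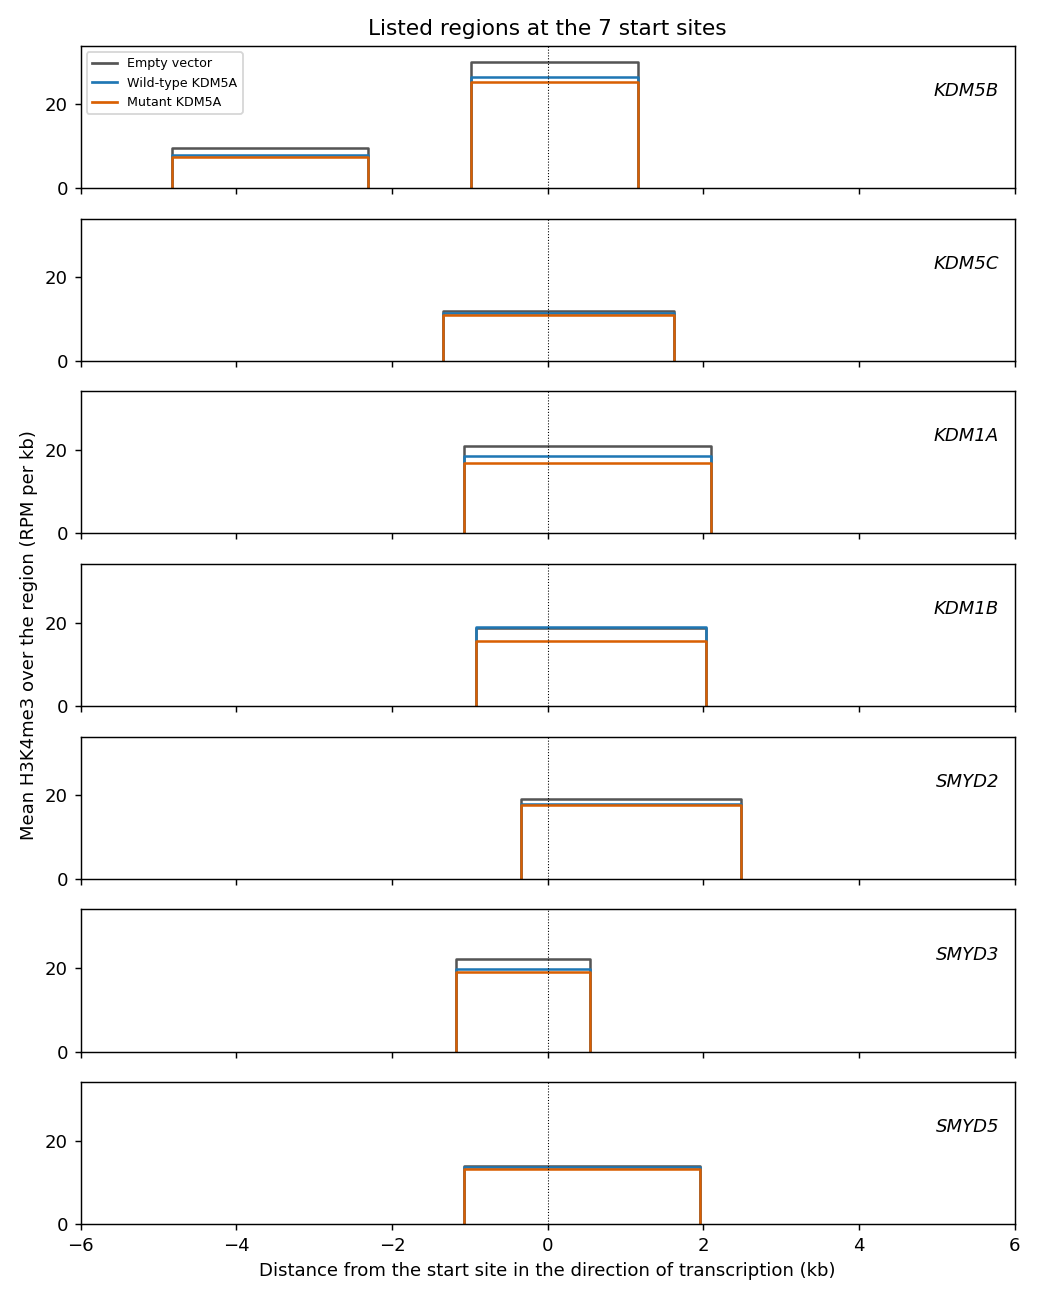
Each box is a listed region at one of the 7 start sites, drawn from its first to its last base as distance from the start in kb, upstream to the left, with its height the mean H3K4me3 in RPM per kb for each of the 3 libraries. KDM5B has 2 regions, the one at the start reaching 30.1 RPM per kb with EV and the upstream one 9.50, and the SMYD2 region lies mostly after the start.

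Per kb of region, SMYD3 carried the most H3K4me3 with EV, 22.2 RPM per kb, followed by KDM1A with 20.9, SMYD2 with 19.2, KDM5B with 18.97 over both its regions and KDM1B with 18.7 RPM per kb. The counting intervals of neighbours in this order overlap. SMYD5 with 13.95 RPM per kb (12.7 to 15.3) and KDM5C with 11.9 RPM per kb (10.7 to 13.2) were lower, and the interval of SMYD5 does not reach that of KDM1B (17.3 to 20.3). SMYD3 was highest and SMYD5 and KDM5C were the lowest of the 7 in the KDM5A_WT and KDM5A_MUT libraries as well, at 19.6, 13.7 and 11.4 and at 18.97, 13.2 and 10.9 RPM per kb. The KDM5B region at the start, taken alone, had 30.1, 26.5 and 25.5 RPM per kb in the order EV, KDM5A_WT, KDM5A_MUT, and 99.3% of all listed regions had a lower mean per kb. KDM5C's region stood above 66.95% and SMYD5's above 71.6% of all regions on that scale.

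**Figure D2:**
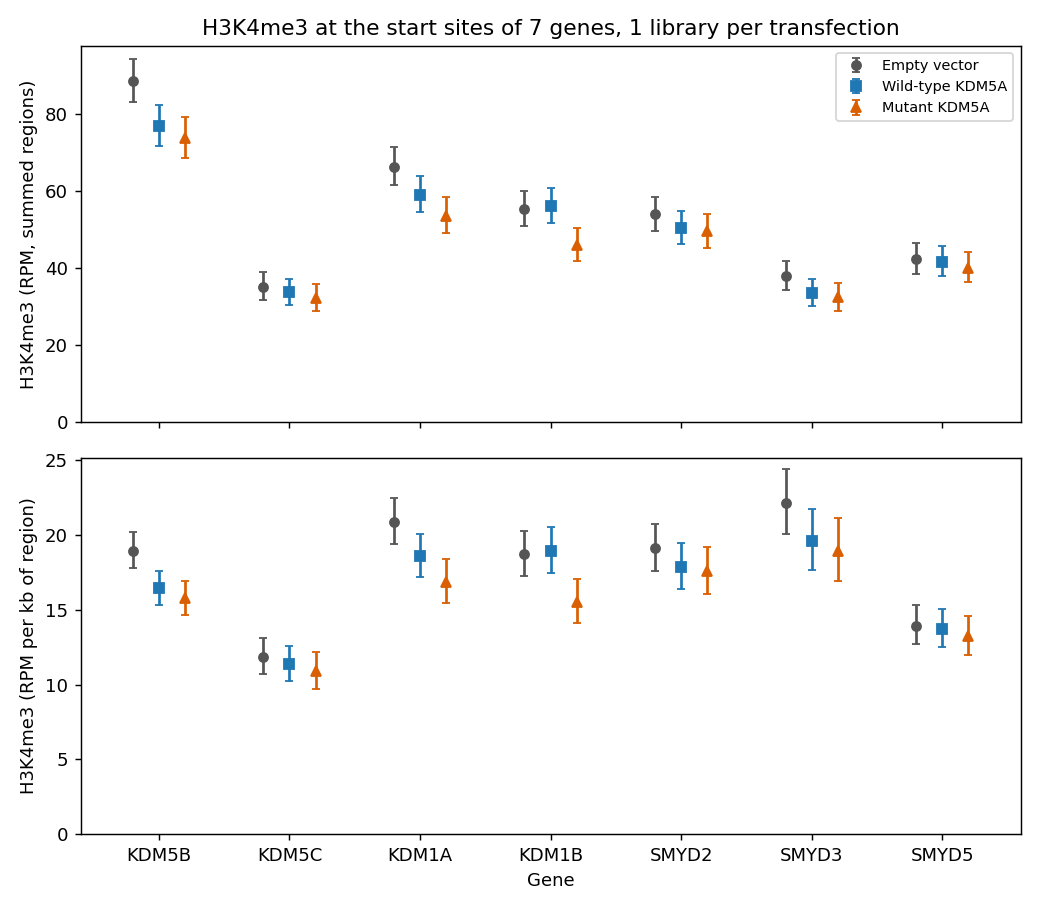
H3K4me3 of the 7 genes with EV (grey circles), KDM5A_WT (blue squares) and KDM5A_MUT (orange triangles), 1 library each, as RPM summed over a gene's regions (top) and as RPM per kb of region (bottom), with exact Poisson 95% intervals. Summed RPM runs from 32.3 for KDM5C with KDM5A_MUT to 88.7 for KDM5B with EV, and all 3 intervals of a gene overlap in 4 of the 7 genes.

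Among the KDM5 paralogs, KDM5B had 88.7 RPM with EV (95% counting interval 83.1 to 94.5), 76.9 RPM with KDM5A_WT (71.8 to 82.3) and 73.8 RPM with KDM5A_MUT (68.5 to 79.3). In RPM the EV library was thus the highest, and its interval for the sum of both regions lies above those of both KDM5A libraries. With either scaling or the trend removed, the interval of each ratio to EV held 1. Its region at the start had 64.7, 56.9 and 54.8 RPM and the upstream region 23.99, 19.996 and 18.98 RPM in the same order, so that the upstream region kept a share of 27.0%, 26.0% and 25.7% of the sum. For the region at the start alone, the EV interval (59.96 to 69.7) overlaps that of KDM5A_WT (52.5 to 61.6). It lies above that of KDM5A_MUT (50.3 to 59.6). In RPM the ratios of this region to EV were 0.880 (0.789 to 0.983) with KDM5A_WT and 0.847 (0.756 to 0.949) with KDM5A_MUT. In the upstream region alone, the intervals of the 3 libraries overlap. Its ratios to EV were 0.8335 (0.6925 to 1.003) and 0.791 (0.652 to 0.959). Intervals of levels can thus overlap where that of their ratio leaves out 1. The scaling was not varied for these regions taken singly. KDM5C, the X-linked paralog, had 35.2 RPM (31.7 to 38.9), 33.7 RPM (30.4 to 37.4) and 32.3 RPM (28.9 to 36.0). All 3 intervals of KDM5C overlap.

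KDM1A, which works in the CoREST complex, had 66.5 RPM with EV (61.7 to 71.5), 59.2 RPM with KDM5A_WT (54.7 to 63.9) and 53.7 RPM with KDM5A_MUT (49.2 to 58.5). In RPM the KDM5A_MUT interval lies wholly below that of EV, and the KDM5A_WT interval overlaps both. KDM1B had 55.4 RPM (51.1 to 60.1), 56.1 RPM (51.7 to 60.8) and 46.0 RPM (41.9 to 50.5). In RPM it was the 1 gene of the 7 in which the KDM5A_WT library was not below the EV library, and KDM5A_MUT was the lowest, with an interval clear of the other two. With either scaling or the trend removed, the interval of the ratio of KDM5A_MUT to EV held 1 for KDM1A and KDM1B, while that of KDM5A_MUT to KDM5A_WT stayed below 1 for KDM1B.

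In each of the SMYD genes the intervals of the 3 libraries overlap. SMYD2 had 54.0 RPM (49.7 to 58.6), 50.5 RPM (46.4 to 54.9) and 49.7 RPM (45.4 to 54.3) in the order EV, KDM5A_WT, KDM5A_MUT. SMYD3, a methyltransferase whose known substrates include the kinase MAP3K2, had 37.99 RPM (34.4 to 41.9), 33.6 RPM (30.3 to 37.3) and 32.5 RPM (29.1 to 36.3). SMYD5 had 42.4 RPM (38.6 to 46.5), 41.7 RPM (37.99 to 45.8) and 40.2 RPM (36.3 to 44.3). SMYD5 showed the smallest spread between its libraries of the 7 genes.

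The first comparison asks whether the wild-type enzyme, put back into knockout cells, went with another level of H3K4me3 at these genes. KDM5B had the lowest ratio to EV, 0.868 (0.790 to 0.953), then SMYD3 with 0.885 (0.767 to 1.02) and KDM1A with 0.890 (0.799 to 0.992). SMYD2 followed with 0.934 (0.830 to 1.05), KDM5C with 0.958 (0.828 to 1.11), SMYD5 with 0.985 (0.863 to 1.12) and KDM1B with 1.01 (0.902 to 1.13). In RPM, 6 of the 7 genes were below 1, as were 91.4% of the strong regions, and with the libraries scaled to a median ratio of 1, to equal sums over the regions or with the trend on level removed 3 were below and 4 above. KDM5B, KDM1A and SMYD3 were the 3 below 1 in all of these settings. The interval lay below 1 for 2 genes, KDM5B and KDM1A, where 40.9% of the strong regions had such an interval, and above 1 for 0 genes, where 0.230% did. With either scaling or the trend removed, 0 genes had an interval below 1. None of the 7 was 1.5-fold lower or higher, against 6.53% lower and 6.23% higher of all regions and 0.0459% in each direction of the strong ones, where the higher ones all lay in the chromosome 12 group.

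Relative to the strong regions, whose median log2 ratio in this comparison was −0.15 (quartiles −0.22 and −0.078), the 7 genes lay on both sides. Their own median log2 ratio was −0.097, against −0.11 for all regions, and turned to 0.043 with a median ratio of 1. KDM5B was 0.054 below the median of the strong regions on the log2 scale, SMYD3 0.023 and KDM1A 0.017 below it. SMYD2 was 0.052 above it, KDM5C 0.089, SMYD5 0.13 and KDM1B 0.17, so that 93.2% of the strong regions had a lower ratio than KDM1B. Of the 7 genes, 4 lay within the quartiles. Summed over the 8 regions the ratio was 0.925 (0.885 to 0.967), from 3818 reads with KDM5A_WT and 4073 with EV. The share of reads in listed regions differed the same way, 60.7% with KDM5A_WT and 67.0% with EV, and its part in the ratios of the genes was not tested.

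**Figure D3:**
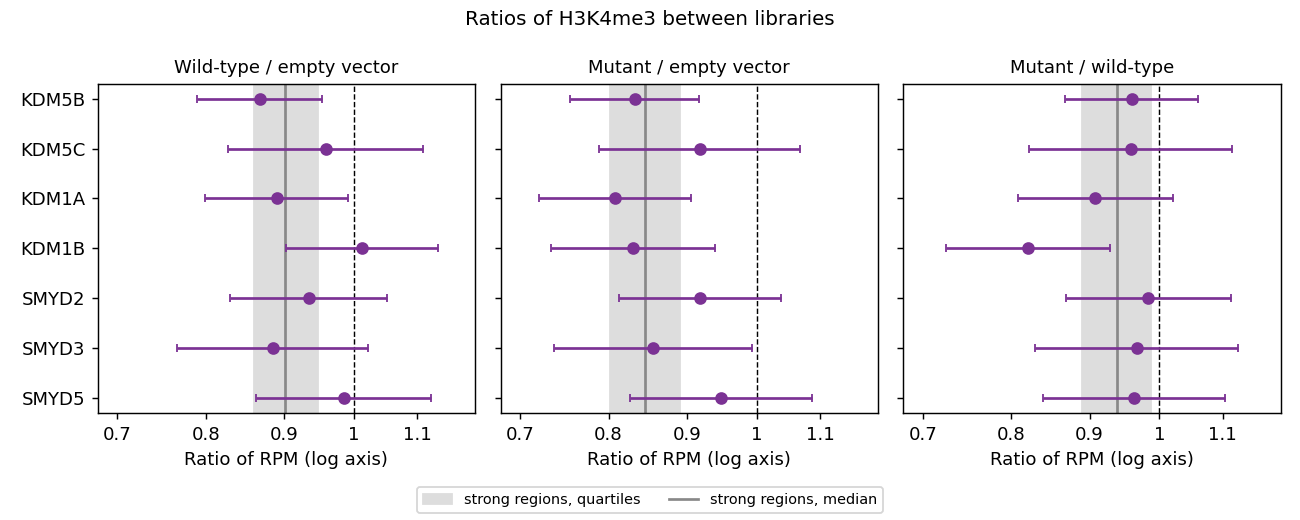
Ratio of RPM between libraries for each of the 7 genes (log axis), with exact conditional 95% intervals for counting error, 1 library per transfection. The grey band and line are the quartiles and the median of the 10887 strong regions and the dashed line marks a ratio of 1; KDM5C, SMYD5 and KDM1B lie to the right of the band for KDM5A_WT against EV, KDM5C, SMYD2 and SMYD5 to the right of it for KDM5A_MUT against EV, and KDM1B to the left for KDM5A_MUT against KDM5A_WT (0.820).

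KDM5A_MUT was compared with EV in the same way. KDM1A had the lowest ratio to EV, 0.808 (0.721 to 0.905), followed by KDM1B with 0.830 (0.733 to 0.940), KDM5B with 0.832 (0.755 to 0.917) and SMYD3 with 0.856 (0.737 to 0.993). KDM5C had 0.918 (0.788 to 1.07), SMYD2 0.919 (0.813 to 1.04) and SMYD5 0.948 (0.827 to 1.09). In RPM, 7 of 7 genes were below 1, as were 98.0% of the strong regions, while 3 were below and 4 above with either scaling or the trend removed. KDM5B, KDM1A and KDM1B were the 3 that stayed below in those settings. The interval lay below 1 for 4 genes, KDM5B, KDM1A, KDM1B and SMYD3, and above 1 for 0, where 69.0% and 0.0827% of the strong regions had such intervals, and below 1 for 0 genes with either scaling or the trend removed. None was past 1.5-fold, against 8.15% lower and 6.61% higher of all regions and 0.432% lower and 0.0459% higher of the strong ones.

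The median log2 ratio of the genes was −0.22, beside −0.24 for the strong regions (quartiles −0.32 and −0.17) and −0.18 for all regions, and it turned to 0.0087 with a median ratio of 1. KDM1A lay 0.062 below the median of the strong regions, KDM1B 0.022 and KDM5B 0.020 below it. SMYD3 lay 0.022 above it, KDM5C and SMYD2 0.12 each and SMYD5 0.17, where 92.3% of the strong regions had a lower ratio than SMYD5. Summed over the 8 regions the ratio was 0.863 (0.824 to 0.904), from 3251 reads with KDM5A_MUT, beside 56.9% of its reads in listed regions. Both this and the first comparison use the same EV library, so that its own error enters both.

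The third comparison sets KDM5A_MUT against KDM5A_WT and leaves the EV library out. KDM1B had a ratio of 0.820 (0.725 to 0.928), the lowest of the 7, and its log2 ratio of −0.28 stayed below 0 with either scaling or the trend removed, at −0.19 in each. KDM1A followed with 0.908 (0.808 to 1.02). The other 5 lay close together, KDM5C at 0.958 (0.822 to 1.12), KDM5B at 0.959 (0.867 to 1.06), SMYD5 at 0.963 (0.839 to 1.10), SMYD3 at 0.966 (0.829 to 1.13) and SMYD2 at 0.983 (0.869 to 1.11). In RPM all 7 were below 1, as were 79.6% of the strong regions, and with either scaling or the trend removed 2, KDM1A and KDM1B, were below and 5 above.

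KDM1B was the 1 gene with an interval below 1, which 20.7% of the strong regions had, and 0 genes had one above 1, which 0.615% had. That 1 of 7 is near the share among the strong regions, and 5.77% of these had a lower ratio than KDM1B. None of the genes was past 1.5-fold, against 5.45% lower and 5.19% higher of all regions and 0% of the strong regions in either direction. The median log2 ratio of the genes was −0.060, beside −0.093 for the strong regions (quartiles −0.17 and −0.018) and −0.077 for all regions, and it turned to 0.032 with a median ratio of 1. Of the 7 genes, 6 lay within the quartiles of the strong regions, all but KDM1B. For SMYD2, the interval of 0.869 to 1.11 holds differences of that size between the forms of KDM5A in either direction, so that these data do not show that the forms left the same level there.

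**Figure D4:**
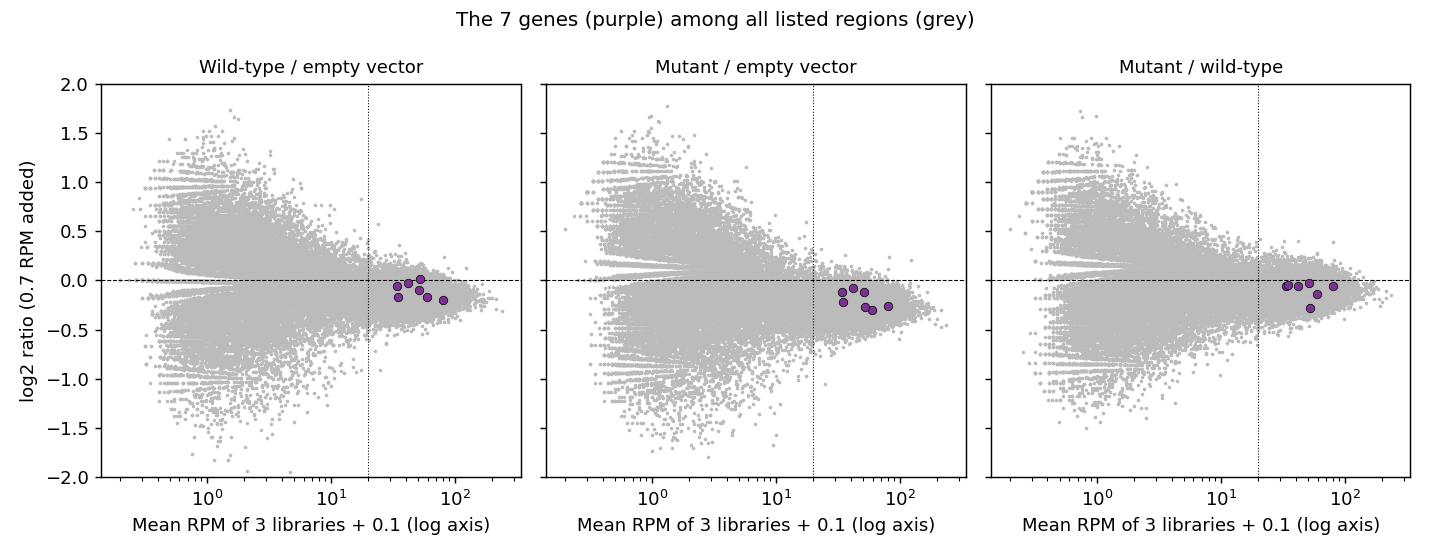
Log2 ratio of RPM (0.7 RPM added) against mean RPM of the 3 libraries (log axis) for all 30840 listed regions in grey and the 7 genes in purple, for the 3 pairs of libraries; the dotted line marks 20 RPM, and the 20 regions of the chromosome 12 group lie above the range shown in the first and second panel. The genes sit inside the cloud of regions of their level, with median log2 ratios of −0.097, −0.22 and −0.060 that turn positive when the libraries are scaled to a median ratio of 1.

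Over the 3 libraries the smallest difference in pattern was between KDM5B and SMYD3, with a Euclidean distance of 0.029 between their log2 RPM profiles after centring each gene. KDM5C and SMYD2 followed at 0.031, and SMYD5 was nearest to KDM5C at 0.036. KDM1A was nearest to KDM5B at 0.056. KDM1B stood farthest from the rest, with its nearest gene, KDM1A, at 0.14. These distances rest on 3 libraries and say nothing of shared control. Those up to 0.056 are smaller than the counting intervals of the ratios, so that their order is within counting error. Whether the 0.14 of KDM1B is beyond counting error was not tested. For KDM5A_MUT against KDM5A_WT, the log2 intervals of KDM1B (−0.46 to −0.11) and KDM1A (−0.31 to 0.028) overlap.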

How the data were processed

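H3K4me3 ChIP-seq was done in HCT116 KDM5A-/- cells, with 1 H3K4me3 library for each of 3 transfections; the other 4 of the 7 samples (inputs and IgG) were not analysed here, and no background was subtracted. The deposited table gives RPM, as the authors computed it, for 30840 regions. Per the submitters' processing notes the build was hg19 and the tools were deepTools 3.5.6, HOMER, MACS2, MACS and Bowtie2 2.5.4; how regions were called and counted is not given in the sources used here. H3K4me4, the mark that the header of the EV column names, was read as H3K4me3. Starts are printed 1-based.

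The values of a library came in steps (0.0933, 0.0921 and 0.101 RPM), and dividing by the step gave whole reads within 0.02 reads for 100% of values. A count of 0 would allow 3 reads, or 0.280, 0.276 and 0.303 RPM, and no gene was near it. PCR copies are not independent molecules. Gene values are sums over the regions that overlap 3 kb on either side of the start. Each region is counted whole, also where part of it lies farther out, as for the upstream region of KDM5B. Ratios of RPM carry exact conditional (Clopper-Pearson) 95% intervals and levels exact Poisson ones. Log2 ratios have 0.7 RPM added (to 1 digit, the 10th percentile of values above 0). With 1 library per group no model was fitted. The ratios and their intervals were tested on simulated Poisson reads, and the other steps were not tested in this way. All 7 genes were named in each comparison by rule; the members, lists and thresholds were chosen with earlier results of these data known. RefSeq's GRCh38.p14 tables gave strands, neighbours and the upstream sequences of all 7 genes, and no positions of regions. Tools were scipy 1.17.1, statsmodels 0.14.6, numpy 2.4.6, matplotlib 3.10.9 and pandas 2.3.3 under Python 3.11.15.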

Additional observations from a re-analysis of the deposited data

How the results depend on the processing

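No paired analysis was possible because each group has 1 library, and leaving out a library of a pair would end that comparison. Pseudocounts of 0.07 and 3.5 RPM, which do not enter the intervals, changed no direction and no count of genes past 1.5-fold. Windows of 1 kb and 5 kb and the strongest region alone alter KDM5B and leave the other 6 genes as they are, and KDM5B kept its direction and its place in the counts under each. The direction of the medians depended on the scaling. With a median ratio of 1, equal sums over the regions and the lowess trend (span 0.3) removed, in that order, the median log2 ratio of the genes was 0.043, 0.045 and 0.052 for KDM5A_WT against EV, 0.0087, 0.010 and 0.022 for KDM5A_MUT against EV, and 0.032, 0.031 and 0.038 for KDM5A_MUT against KDM5A_WT. For KDM5A_MUT against EV, SMYD3, with an interval below 1 in RPM, turned to 0.0087, 0.010 and 0.022, and KDM5C, SMYD2 and SMYD5, whose intervals held 1, turned positive too, up to 0.12, 0.12 and 0.16. The genes with an interval below 1 fell to 0 in both comparisons with EV under each of the 3, and with the trend removed 1 gene, KDM1B, had an interval above 1 for KDM5A_WT. These settings move all 7 ratios of a comparison by nearly the same amount. Of the regions whose mean RPM was not below the median of 4.70, 1.11% were 1.5-fold lower and 0.357% higher for KDM5A_WT against EV, 2.36% and 0.344% for KDM5A_MUT, and 0.590% and 0.136% for KDM5A_MUT against KDM5A_WT. Reads of 320 to 950 per gene and library set the width of the intervals, and differences inside them were not detectable at this depth.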

Other observations

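Around the 7 start sites, within 100 kb on either side, 16 further regions were listed, 7 of them strong. Of those with a mean of 5 RPM or more, 0 were past 1.5-fold in any comparison. Few regions of such a level are: of all regions not below the median of 4.70 RPM, 0.136% to 2.36% were, by comparison and direction. Regions under 5 RPM were left out of this count. Of these, 202679297 to 202679702 near KDM5B (mean 1.035 RPM) had a log2 ratio of −0.86 for KDM5A_MUT against EV. It had 5 reads with KDM5A_MUT and 16 with EV (ratio 0.338, 0.097 to 0.965). The log2 ratio of 214360609 to 214360833 near SMYD2 (mean 0.50 RPM) was −0.68. That region had 2 and 8 reads, and the interval of its ratio (0.028 to 1.355) holds 1. Of all regions, 8.15% were at least 1.5-fold lower for KDM5A_MUT against EV. KDM1B had 0 of the 16 further regions and KDM1A 1, of 1.12 RPM on average, while SMYD5 had 5 and KDM5B 4. The region 52.7 to 54.8 kb upstream of the KDM5B start, at chromosome 1, 202829672 to 202831794 (hg19), had 46.2 RPM with EV, 34.1 RPM with KDM5A_WT and 34.2 RPM with KDM5A_MUT. Its ratios to EV were 0.738 (0.643 to 0.846) and 0.741 (0.643 to 0.852), and it was singled out after its values were seen. In the same comparisons 40.9% and 69.0% of the strong regions had an interval below 1. The log2 ratios of the region, −0.43 in each, lie below the lower quartiles of the strong regions, −0.22 and −0.32. The scaling was not varied for this region.

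Beside SMYD5, the region 18.5 to 22.6 kb past the start, at chromosome 2, 73459461 to 73463590, had 109 RPM with EV, 89.7 RPM with KDM5A_WT and 95.5 RPM with KDM5A_MUT. The region at the SMYD5 start itself had 42.4, 41.7 and 40.2 RPM. Farther on, the regions at 73494429 to 73497330 and 73510166 to 73512769, singled out after their values were seen, had ratios of KDM5A_MUT to KDM5A_WT of 0.810 (0.705 to 0.930) and 0.842 (0.751 to 0.944), against 0.963 (0.839 to 1.10) at SMYD5. Of the strong regions, 20.7% had an interval below 1 for KDM5A_MUT against KDM5A_WT. The other 3 regions around SMYD5 had ratios of 1.06 (0.972 to 1.165), 1.13 (0.673 to 1.898) and 1.22 (0.854 to 1.739), and each interval holds 1. Whether these ratios differ from that of SMYD5 was not tested.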
